A study of Rattus norvegicus with 28 samples.

Results

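The genes described here are 8 members of the signalling pathways that link neuronal activity and growth factors to CREB-driven transcription: the transcription factors Creb1 and Crem, the kinases Akt1 and Akt2 with their substrate kinase Gsk3b, the MAP kinase Mapk3 (ERK1), and the calcium-dependent kinases Camk2a and Camk4. They were chosen by name, as the non-control probes of the rat gene expression arrays whose accession maps to one of these 8 symbols. This gave 12 probes for 8 genes, among 18643 probes for 15637 genes that matched a single symbol and 30367 non-control probes in all. Crem has 5 probes and each of the other genes has 1. All 8 genes had a probe that passed the filter on dim probes, which keeps a probe if some group has it above background on all of its arrays.

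Whole hippocampus of 14 adult male Sprague-Dawley rats was profiled on 1-colour Agilent arrays, 1 rat per array. The groups were sham-injured rats (Sham, 2 arrays), rats given a severe parasagittal fluid-percussion brain injury (TBI, 3 arrays), and injured rats given imipramine (a tricyclic antidepressant), Prozac (fluoxetine) or Zoloft (sertraline), the latter pair being serotonin reuptake inhibitors (3 arrays each). Per the study's methods, rats were given drug or vehicle, and each drug was injected intraperitoneally 1 h after injury at a dose common to the 3 drugs. All tissue was taken 24 h after injury or sham injury. No group used here received a drug without injury.

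CREB is a transcription factor that binds the cAMP response element and becomes active when kinases phosphorylate it. Calcium entering through synapses reaches it through calmodulin-dependent kinases such as CaMKIV, and growth factor receptors reach it through the MAP kinase and AKT routes. AKT also phosphorylates and thereby inhibits GSK3B, and this set of proteins has long been studied in the hippocampus for neuronal survival, memory and the action of antidepressants. All of these steps run through phosphorylation of existing protein, which an RNA array does not measure. The values below are RNA levels.

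The arrays lay on 3 slides. The Sham arrays had a slide of their own with its own scan day, so slide, scan day and injury cannot be told apart in any comparison with Sham. All TBI arrays shared a slide with TBI+Prozac replicate 1, and the other 8 drug arrays shared the remaining slide. No imipramine or Zoloft array lay on the TBI slide, so drug and slide cannot be told apart when these groups are compared with TBI. Between 14676 and 18196 probes per array were above background, fewest on TBI replicate 1. Of 12 neuronal markers 11 were measured, and all 11 were above background on every array of each group other than TBI, where 10 were. The choroid plexus marker Ttr varied widely within groups, from a log2 signal of -2.63 to 6.69, being highest on TBI+Imipramine replicates 1 and 2, TBI+Zoloft replicates 1 and 2 and TBI+Prozac replicate 1. In bulk tissue, fewer cells of a type and less RNA per cell cannot be told apart.

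Levels are given as log2 signal, the log2 of a probe's signal after division by an array-wide reference (the 75th percentile of signals that exceeded background on that array), so that 0 is that percentile and negative values lie under it. A level of one probe cannot be set against that of another. Differences are between group means of log2 signal and were tested with limma in 1 fit of all 14 arrays, with Benjamini-Hochberg adjustment over all 17322 probes kept. A call is an adjusted p under 0.05. The methods' t-test named below is the t-test of the study's methods with the same adjustment added here. The study itself called genes by unadjusted p and fold change, without correction for multiple testing. A call lost by that test is therefore not a failure by the study's own rule. P-values measure the spread between individual rats.

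The cAMP response element is shown first in its sequence context, because Crem turned out to be the gene of the set with the most marked difference from Sham and Sst and Nr4a1 were among the CREB target genes that fell. Each line gives 120 bases of RefSeq sequence (assembly GRCr8), 100 before and 20 from an annotated transcription start, 5′ to 3′ on the plus strand. Capitals mark the full palindrome TGACGTCA or its shorter core TGACG or CGTCA, which is the same core read on the other strand. The core is contained in the palindrome and is marked on its own where the palindrome is absent.
Crem, start 2, chr17:58984697-58984816: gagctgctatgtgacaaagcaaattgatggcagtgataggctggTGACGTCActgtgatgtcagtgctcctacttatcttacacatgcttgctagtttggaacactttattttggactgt
Crem, start 3, chr17:58985390-58985509: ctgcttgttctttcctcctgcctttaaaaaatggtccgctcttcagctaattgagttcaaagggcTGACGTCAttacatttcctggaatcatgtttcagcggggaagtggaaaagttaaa
Creb1, start 1, chr9:73397409-73397528: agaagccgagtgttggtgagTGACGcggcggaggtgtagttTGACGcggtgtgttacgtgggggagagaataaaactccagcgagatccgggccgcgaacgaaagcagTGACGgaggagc
Sst, chr11:90461446-90461565: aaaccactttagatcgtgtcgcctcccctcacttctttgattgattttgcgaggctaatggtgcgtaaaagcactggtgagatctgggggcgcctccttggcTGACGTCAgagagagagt
Nr4a1, chr7:134260038-134260157: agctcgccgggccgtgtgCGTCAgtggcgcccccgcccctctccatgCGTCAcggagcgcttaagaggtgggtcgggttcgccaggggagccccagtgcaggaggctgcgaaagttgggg

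Crem has 3 annotated starts in this table. Start 1, not printed here, held only the core, 241 and 6 bases before it. The full palindrome lies 56 bases before start 2 and 35 bases before start 3, where a further copy begins at base 40 of the transcript, beyond the stretch shown. Crem is known to use an internal promoter that cAMP induces and that gives short repressor forms. Which start gave rise to the RNA on these arrays was not measured. In Sst, the neuropeptide gene in which the element was first worked out, the palindrome begins at base 3 from the annotated start. Creb1 and Nr4a1 held only the core in these windows, and start 2 of Creb1, not printed here, held neither the core nor the palindrome. Over all 33469 promoter windows of 300 bases (250 before to 50 after a start), 1.83% held the palindrome and 21.2% held the core or palindrome on either strand. The palindrome was in 2 of the 10 windows of the 8 genes, both of Crem (7 of the 8 genes were in the table), and in 5 of 22 windows of the CREB target genes: Btg2, Ppargc1a, Ppp1r15a, Sst and Vgf. A match describes the letters of the window and is not evidence of binding.

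Crem encodes activators and repressors that compete for the CREB site. Its main probe had log2 signals of -2.09 and -2.29 in Sham, -1.88, -1.39 and -1.36 in TBI, -1.11, -1.34 and -1.33 after imipramine, -1.58, -1.60 and -1.48 after Prozac, and -1.44, -1.88 and -0.74 after Zoloft. All 12 injured arrays lay above both Sham arrays, and TBI+Zoloft replicate 3 was the highest of all. The mean difference from Sham was 0.64 (SE 0.27, limma adjusted p = 0.125) in TBI, 0.93 (SE 0.27, 1.90-fold, adjusted p = 0.0257) after imipramine, 0.64 (adjusted p = 0.132) after Prozac and 0.84 (adjusted p = 0.0863) after Zoloft. Only the imipramine group passed the threshold, and that call was lost without Sham replicate 1 or 2 (adjusted p = 0.0792 and 0.157) or imipramine replicate 1 or 2 (0.0836 and 0.0597). It was also lost with each array centred on its median (0.66, limma adjusted p = 0.0516), with no filter on dim probes (adjusted p = 0.0579) and by the methods' t-test (0.0548), so that it held in 19 of 26 alternatives. Whether it differed from the other injured groups is a separate question: the log2 difference of TBI+Imipramine from TBI was 0.29, with a 95% interval from -0.23 to 0.81.

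The other Crem probes gave a graded picture. Probe A_43_P11922 had the largest differences. It read -5.81 and -5.76 in Sham, -4.79, -4.09 and -4.14 in TBI, -4.02, -4.06 and -4.14 after imipramine, -4.06, -4.75 and -4.30 after Prozac, and -4.94, -4.88 and -3.80 after Zoloft. Every injured array lay above both Sham arrays, of which 1 was above background. The differences from Sham passed in every injured group: 1.45 (SE 0.32) in TBI with a limma adjusted p of 0.0103, 1.72 after imipramine (adjusted p = 0.00317), 1.42 after Prozac (adjusted p = 0.0137) and 1.25 after Zoloft (adjusted p = 0.0428). The probe passed the filter through the injured groups alone, in which it was high, and no fold is given against Sham. Its calls rest on the same Sham arrays and are not separate support for an injury effect. The differences depended on how background was removed from this dim probe: with the normexp correction they were 0.45, 0.49, 0.38 and 0.48 (adjusted p = 0.112, 0.0837, 0.206 and 0.175). Leaving out Sham replicate 1 or 2 ended the call in TBI (adjusted p = 0.0691 and 0.0613), after Prozac (0.0868 and 0.0719) and after Zoloft (0.174 and 0.167), and leaving out TBI+Zoloft replicate 3 gave 0.88 after Zoloft (0.0672). Of 25 alternatives the call held in 21 for TBI, 24 for imipramine, 20 for Prozac and 12 for Zoloft. The Zoloft call was also lost with the replicate block (1.13, limma adjusted p = 0.0836), with no filter on dim probes (0.0933) and without any 1 of several TBI, imipramine or Prozac arrays.

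Probe A_64_P126493 lay 0.80 above Sham in TBI (limma adjusted p = 0.0802) and 0.999 above it after imipramine (adjusted p = 0.0269), and probe A_64_P042283 lay 0.55 (adjusted p = 0.152) and 0.93 (adjusted p = 0.0173) above it. As with the main probe, both passed after imipramine and in no other group in this fit. The A_64_P126493 call after imipramine held in 17 of 26 alternatives, being lost with quantile normalization (0.70, limma adjusted p = 0.0617), the median (0.73, adjusted p = 0.0513), no filter (0.0591), the replicate block (0.0592), either Sham array or imipramine replicate 1 or 2 left out, and the methods' t-test. In TBI the same probe passed with the percentile over all probes (limma adjusted p = 0.0465), with the series table (0.0458), without TBI replicate 1 (0.0484) and without TBI+Zoloft replicate 3 (0.0203). The A_64_P042283 call held in 21 of 26 alternatives and was lost without either Sham array (limma adjusted p = 0.0846 and 0.0913), without imipramine replicate 1 or 2 (0.0545 and 0.0645) and by the methods' t-test (0.0579). Probe A_44_P988767 read -5.51 and -5.21 in Sham against -5.91, -4.998 and -5.06 in TBI, a log2 difference of 0.03 (limma adjusted p = 0.964), and these groups overlapped. In the drug groups it differed from Sham by 0.53 after imipramine (limma adjusted p = 0.375), with all 3 arrays above Sham, by 0.29 after Prozac (adjusted p = 0.675) and by 0.84 after Zoloft (adjusted p = 0.242), where the arrays overlapped those of Sham. Its Zoloft difference thus equalled that of the main probe and its TBI difference did not come near it. On 4 of the 5 probes, then, all 12 injured arrays exceeded both Sham arrays, and on the remaining probe 9 of 12 did. One of the 4, A_43_P11922, had passed the filter only through the injured groups. The share of all probes with all 12 arrays above Sham was not counted. Taken by group, every array exceeded both Sham arrays for 20.9% of all probes in TBI and 42.0% after imipramine. This held for 36.8% after Prozac and 19.9% after Zoloft. The 3 probes A_44_P988767, A_64_P042278 (the main one) and A_64_P042283 carry the same accession, and probes of 1 gene share their arrays, so they are not independent measurements of an injury effect.

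**Figure D1:**
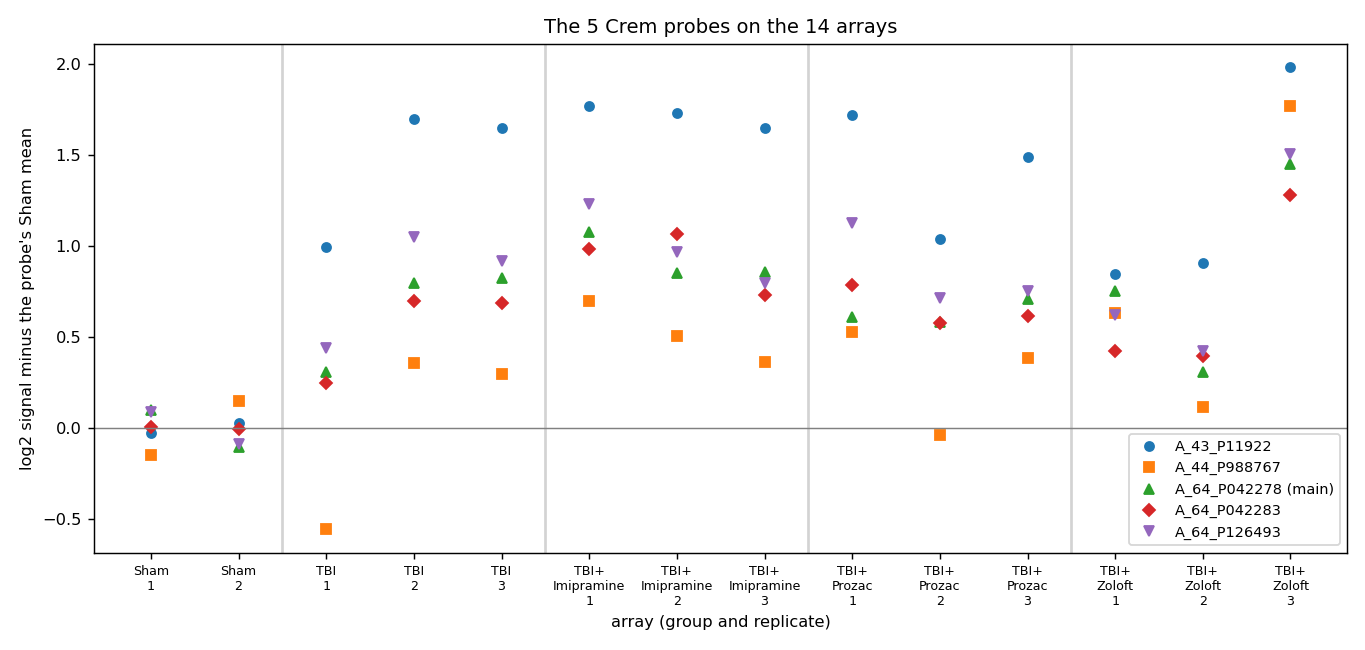
Log2 signal of each of the 5 Crem probes (symbols) on each of the 14 arrays, minus that probe's mean over the 2 Sham arrays. On 4 probes the 12 injured arrays lie above the Sham arrays, and TBI+Zoloft replicate 3 is the highest array on all 5.

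Creb1, the founding member of the family, was measured by a single dim probe. Its log2 signals were -6.29 and -6.02 in Sham, -6.01, -5.83 and -5.59 in TBI, -5.51, -5.34 and -5.51 after imipramine, -5.74, -5.85 and -5.50 after Prozac, and -5.83, -6.06 and -5.74 after Zoloft. The imipramine arrays were the highest group and lay above every TBI and Sham array, and 11 of 12 injured arrays lay above both Sham arrays. Creb1 was above background on 1 of 2 Sham arrays, 2 of 3 TBI arrays, 2 of 3 TBI+Zoloft arrays and all arrays of the other groups. The difference from Sham was 0.35 (SE 0.17, limma adjusted p = 0.179) in TBI, 0.70 (SE 0.17, adjusted p = 0.0107) after imipramine, 0.46 (adjusted p = 0.0851) after Prozac and 0.28 (95% interval -0.08 to 0.65) after Zoloft. Creb1 passed the filter on dim probes only through the imipramine and Prozac groups, which have its highest means, and no fold is given against a Sham group that was not above background throughout. The imipramine call did not hold with the normexp background correction, where the difference turned to -0.15 (adjusted p = 0.501), and without Sham replicate 1 it was 0.57 (adjusted p = 0.106). By the methods' t-test it had an adjusted p of 0.0715. Against TBI, imipramine-treated rats differed by 0.35 (SE 0.15, adjusted p = 0.218).

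Akt1 and Akt2 encode the kinases that PI3K signalling activates at the membrane. The group means of Akt1 spanned 0.39 and those of Akt2 0.83 on the log2 scale. Akt1 read -1.30 and -1.51 in Sham, -1.35, -1.31 and -1.21 in TBI, -0.98, -0.96 and -1.12 after imipramine, -0.95, -1.15 and -1.01 after Prozac, and -1.31, -1.53 and -1.35 after Zoloft. The imipramine and Prozac arrays lay above all Sham, TBI and Zoloft arrays. Akt1 was 0.39 (SE 0.13, 1.31-fold) above Sham after imipramine, with a limma adjusted p of 0.0481, and 0.37 above it after Prozac (adjusted p = 0.075). The median of all kept probes was itself 0.18 higher after imipramine and 0.14 higher after Prozac than in Sham, and relative to that median the Akt1 differences were 0.20 and 0.23. The Akt1 call was lost under each of the other scalings, with differences from 0.12 to 0.17 (adjusted p = 0.226 to 0.388). It was also lost with normexp (0.31, limma adjusted p = 0.113), with no filter on dim probes (0.134) and by the methods' t-test (0.112). Leaving out imipramine replicate 1 or 2 ended it too (limma adjusted p = 0.131 and 0.144). Without Sham replicate 1 or 2 the difference was 0.49 or 0.28. The call held in 7 of 26 alternatives. Against TBI, Akt1 was 0.27 higher after imipramine (adjusted p = 0.222) and 0.25 higher after Prozac (adjusted p = 0.493).

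Akt2, the form best known from insulin signalling, read -4.54 and -4.89 in Sham, -5.19, -4.47 and -4.62 in TBI, -4.34, -4.25 and -4.53 after imipramine, -4.47, -4.92 and -4.40 after Prozac, and -4.86, -5.38 and -5.38 after Zoloft. The Zoloft arrays were all below the imipramine arrays, with group means 0.83 apart, and overlapped the range of the Prozac arrays. Across the 3 drugs the F test of limma gave an adjusted p of 0.087 for Akt2. Against Sham, Zoloft-treated rats differed by -0.49 (limma adjusted p = 0.262), a difference that passed only with quantile normalization (adjusted p = 0.0447).

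Gsk3b, the kinase that AKT inhibits, had the smallest range of group means of the 8 genes, 0.34. Its log2 signals ran from -1.83 on TBI replicate 1 to -1.21 on TBI+Prozac replicate 3, and the Sham arrays (-1.51 and -1.44) lay inside that range. The Prozac arrays (-1.26, -1.40 and -1.21) were above the Sham arrays and above the TBI arrays (-1.83, -1.57 and -1.50). The difference from TBI was 0.34 (SE 0.14), with an unadjusted p of 0.0343 and a limma adjusted p of 0.461, and was 0.20 relative to the median of all probes.

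Mapk3, one of the ERK kinases at the end of the MAP kinase cascade, read 3.17 and 3.48 in Sham, 2.62, 2.95 and 2.94 in TBI, 3.08, 2.93 and 3.15 after imipramine, 3.20, 2.92 and 2.98 after Prozac, and 3.19, 2.97 and 3.37 after Zoloft. All TBI arrays and 9 of the 12 injured arrays lay below both Sham arrays, and no injured array lay above both. The TBI difference from Sham was -0.49 (SE 0.17, 0.712-fold) and missed the threshold, with a limma adjusted p of 0.0697. It passed under 4 of the other scalings or tables of values, at -0.58 with quantile normalization (adjusted p = 0.0126), -0.52 with the percentile over all probes (0.0248), -0.53 with the median (0.0224) and -0.52 with the deposited series table (0.0241). Under the same 4 settings Mapk3 also passed below Sham after imipramine (-0.52 to -0.54, adjusted p = 0.0184 to 0.0216) and after Prozac (-0.44 to -0.50, adjusted p = 0.0331 to 0.0494), against -0.27 (adjusted p = 0.273) and -0.29 (adjusted p = 0.272) in the scaling used here. After Zoloft, Mapk3 was 0.34 above TBI (SE 0.15, limma adjusted p = 0.314), with all Zoloft arrays above the TBI arrays.

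Camk2a and Camk4 are kinases that calcium and calmodulin activate, the first abundant at excitatory synapses and the second largely nuclear and able to phosphorylate CREB. Camk2a read -1.30 and -0.88 in Sham, -1.49, -1.07 and -1.96 in TBI, -1.15, -1.57 and -2.07 after imipramine, -1.02, -1.13 and -1.09 after Prozac, and -2.08, -1.99 and -1.86 after Zoloft. The Zoloft arrays were close together and below all Sham and Prozac arrays. The TBI and imipramine arrays were spread from -1.07 to -2.07. The Zoloft difference from Sham was -0.89 (SE 0.27, 0.541-fold, limma adjusted p = 0.0776), and the drug groups spanned 0.90 with an adjusted p of 0.106 in the F test of limma.

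Camk4 read -2.90 and -2.83 in Sham, -3.99, -3.09 and -2.81 in TBI, -3.30, -3.58 and -3.54 after imipramine, -3.57, -3.23 and -3.21 after Prozac, and -3.54, -3.55 and -3.87 after Zoloft. Every drug-treated array lay below both Sham arrays, and only TBI replicate 3 lay above them. The difference from Sham was -0.43 in TBI (limma adjusted p = 0.323), -0.61 after imipramine (adjusted p = 0.132), -0.47 after Prozac (adjusted p = 0.276) and -0.79 after Zoloft (SE 0.28, adjusted p = 0.114). The imipramine and Zoloft differences passed under 4 other scalings or tables of values, at -0.85 to -0.90 and -0.83 (adjusted p = 0.0114 to 0.0163 and 0.0347 to 0.0371). They also passed without TBI replicate 1, the array with the lowest Camk4 and the fewest probes above background (adjusted p = 0.0192 and 0.0183), which left the means compared as they were. Neuronal markers stood beside these values as follows. The summed signal of the 11 measured markers was 44.3 to 50.5 times the 75th percentile in Sham, 35.4 to 47.3 in TBI, 41.3 to 45.3 after imipramine, 46.7 to 52.8 after Prozac and 38.1 to 48.5 after Zoloft. Of the 11, 1 passed below Sham after Zoloft, where 5.95% of all probes passed, and the median difference of the 11 was -0.14. It was the excitatory neuron marker Neurod6 (-0.65, limma adjusted p = 0.0122), which also differed among the drugs (adjusted p = 0.0231 in the F test). In TBI 1 of the 11 passed below Sham, and after imipramine or Prozac none passed. The part of neuronal content in the Camk2a and Camk4 values was not tested.

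**Figure D2:**
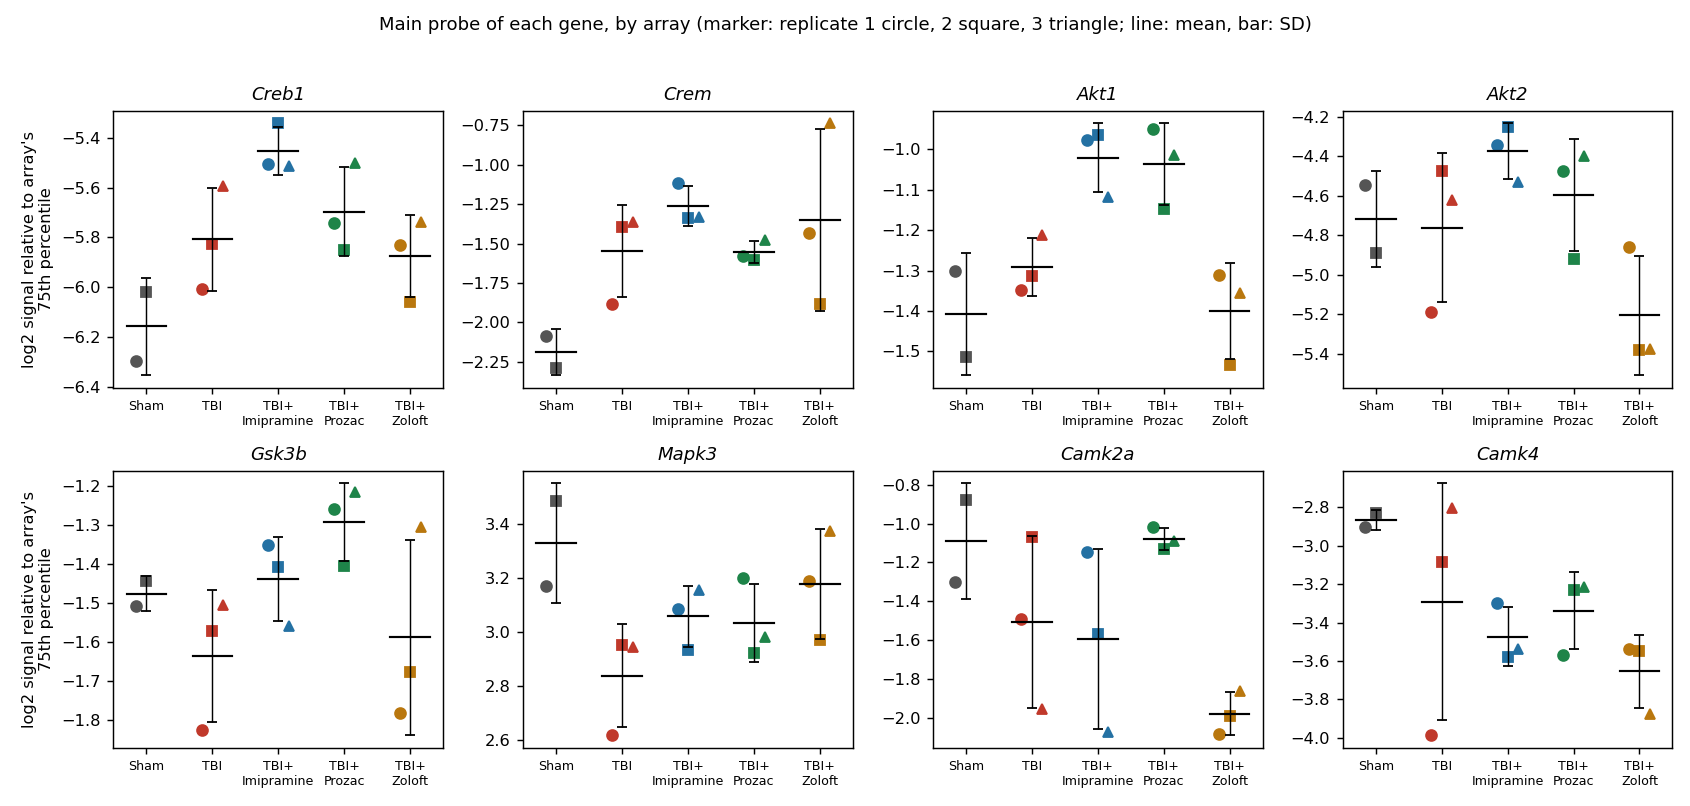
Log2 signal of the main probe of each of the 8 genes on each array, by group, with the group mean (line) and SD (bar). Crem lies above Sham on all 12 injured arrays, Mapk3 lies below Sham on all 3 TBI arrays, and the 3 TBI+Zoloft arrays are the lowest group for Camk2a.

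Counted over the comparisons, 0 of the 8 genes passed for TBI vs. Sham by main probe (2 at an unadjusted p under 0.05), where 16.6% of all probes did. After imipramine 3 of 8 passed against Sham, Creb1, Crem and Akt1, all higher, where 23.4% of probes passed in either direction and 19.8% passed as higher. That upward share depends on scaling: 84.6% of the calls were higher here and 43.4% with each array centred on its median. One of the 3, Creb1, had entered the test only through groups in which it was high. Over the probes above background on all arrays, 2 genes passed. The count was 0 without Sham replicate 1 and 1 without Sham replicate 2 or imipramine replicate 1 or 2. After Prozac 0 of 8 passed against Sham (3 at an unadjusted p under 0.05), where 14.9% of probes did, and after Zoloft 0 of 8 (3 at an unadjusted p under 0.05), where 5.95% did. By the methods' t-test with Benjamini-Hochberg adjustment 0 of 8 passed against Sham in any of the 4 injured groups, and the counts under other settings ran up to 2 for TBI, 4 for imipramine, 1 for Prozac and 3 for Zoloft. The 4 comparisons with Sham share the same 2 Sham arrays. The arrays did not overlap for 3 of 8 genes in TBI vs. Sham, where this held for 42.3% of all probes, for 6 after imipramine (59.6%), 5 after Prozac (52.4%) and 3 after Zoloft (38.3%).

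Against TBI, none of the 8 genes passed for any drug by limma. The count was 0 of 8 for imipramine (2 at an unadjusted p under 0.05), with 2.85% of all probes called. It was 0 of 8 for Prozac (2 at an unadjusted p under 0.05), with 0.00577% called, and 0 of 8 for Zoloft (1 at an unadjusted p under 0.05), with 1.38% called. The 24 differences ran from -0.47 to 0.43 on the log2 scale, and their 95% intervals together reached from -1.003 to 0.956. The count stayed at 0 for each drug under every alternative run, the methods' t-test and the slide block included. With slide as a fixed block, imipramine and Zoloft could be set against TBI only through TBI+Prozac replicate 1. That setting could hardly have given another count and is not a check of these comparisons. The arrays did not overlap those of TBI for 3 of 8 genes after imipramine, where this held for 25.8% of all probes. It held for 2 of 8 after Prozac (15.2% of all probes) and 1 of 8 after Zoloft (15.4%). TBI+Prozac replicate 1, which shared a slide with the TBI arrays, differed from them by 0.07 for Creb1, -0.03 for Crem, 0.34 for Akt1, 0.29 for Akt2, 0.38 for Gsk3b, 0.36 for Mapk3, 0.49 for Camk2a and -0.28 for Camk4. Among the 3 drugs, 0 of 8 genes differed by the F test of limma (4 at an unadjusted p under 0.05), with 3.18% of probes called, and 0 of 8 within the slide that held 8 of the 9 drug arrays.

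**Figure D3:**
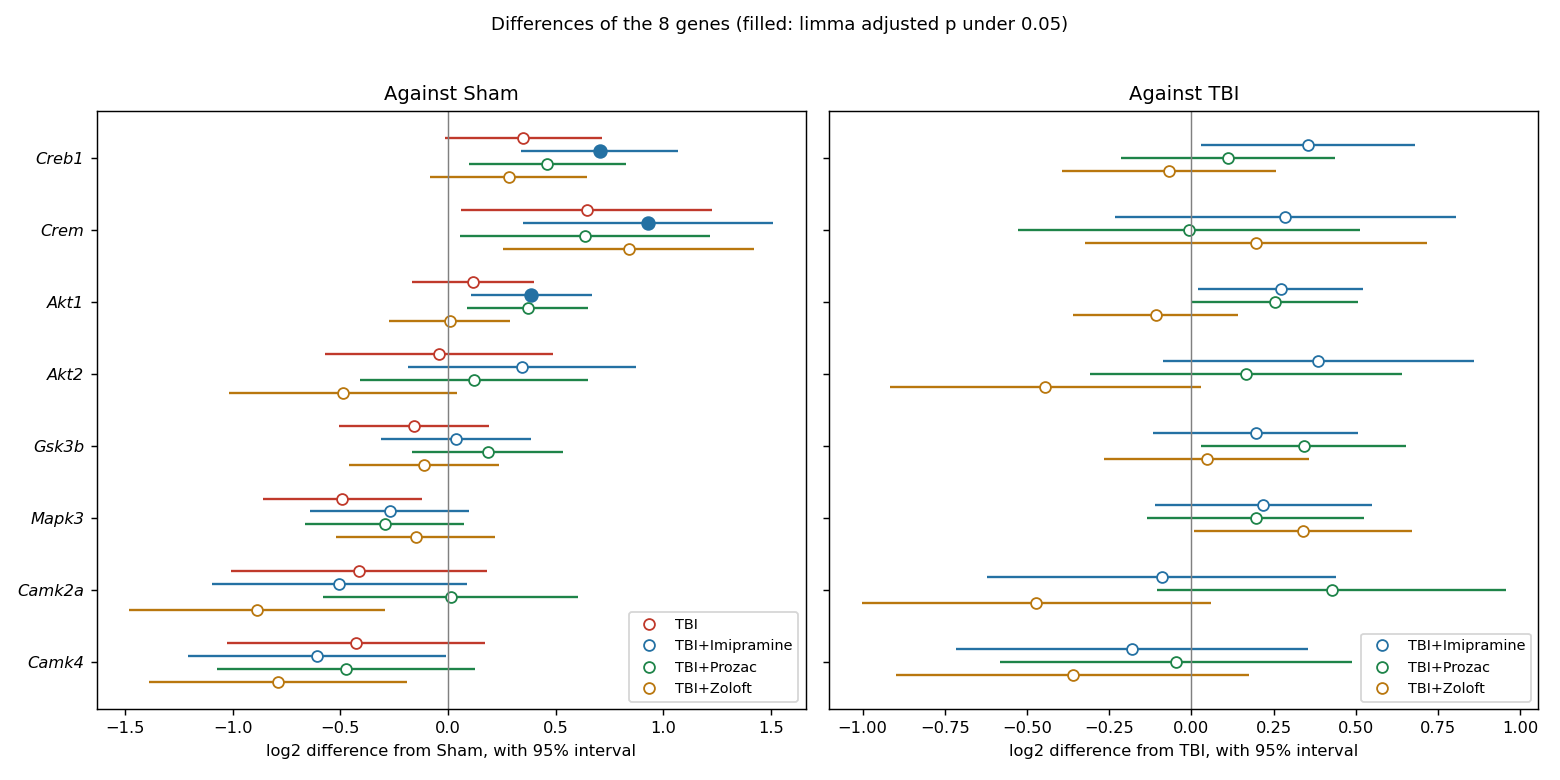
Log2 difference of each of the 8 genes (main probe) from Sham (left) and from TBI (right), with its 95% interval, for the injured groups (colours). Filled points passed a limma adjusted p of 0.05: Creb1, Crem and Akt1 after imipramine against Sham, and none against TBI.

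The order of the group means showed how the 8 genes varied together. TBI+Imipramine was the highest group for Creb1, Crem, Akt1 and Akt2, and Sham was the lowest for the first 3 of these. Sham was the highest group for Mapk3 and Camk4. TBI+Zoloft was the lowest for Akt2, Camk2a and Camk4. Neighbouring groups in these orders mostly overlapped, as the values above show. After subtraction of each array's median, the highest correlation between any pair of the 8 genes over the 14 arrays was 0.58, between Creb1 and Crem, and the lowest was -0.58, between Crem and Camk4. These are descriptions over 14 arrays that share slides.

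By the same measure the 3 genes most like Crem, out of 10196, were Nop58, Atf4 (another CREB-related factor) and Ppard, with r of 0.94, 0.93 and 0.93. Those most like Mapk3 were Pgap3, Sema6c and Zbtb7a (0.95, 0.94 and 0.94), and those most like Camk4 were Endog, Otub2 and Chrm3 (0.90, 0.89 and 0.89). For Camk2a they were Cspp1, Zmym3 and Cyp2d4 (0.90, 0.89 and 0.89), and for Gsk3b Dscaml1, Gnao1 and Mfap3 (0.90, 0.88 and 0.87). For Akt1 they were Stxbp6, Lars1 and Pitrm1 (0.88, 0.84 and 0.84), for Akt2 Ift25, C11h21orf91 and Mlc1 (0.83, 0.82 and 0.81), and for Creb1 Myo1g, C3h15orf48 and Fcna, each at 0.88 (0.875 before rounding).

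The wider pathways held 178 listed genes, of which 163 were on the array and 135 were tested. For TBI vs. Sham 18 of 135 passed (13.3%, against 16.6% of all probes), 8 higher and 10 lower, with a median log2 difference of -0.14 where that of all probes was 0.0015. By list, 1 of 13 CREB partners passed, lower, as did 2 of 17 cAMP and PKA genes and 3 of 21 calcium and CaM kinase genes, all lower. Of 28 MAP kinase genes 4 passed as higher and 1 as lower, of 24 PI3K and AKT genes 2 as higher and 1 as lower, of 10 MAP kinase phosphatase and Sprouty genes 1 as higher, and of 22 CREB target genes 1 as higher and 2 as lower.

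Among the genes that rose was Atf3, a stress-induced factor of the CREB/ATF family, which read -5.23 and -4.99 in Sham and -2.67, -1.87 and -2.45 in TBI. It lay 2.78 above Sham (SE 0.48, 6.89-fold, limma adjusted p = 0.00263) and passed in all 3 drug groups too (2.56 to 2.99). Nras, a small GTPase upstream of the MAP kinases, rose by 1.05 on its main probe (limma adjusted p = 0.00188). A second Nras probe moved far less, with means of -3.33 in Sham and -3.14 in TBI. Shc1, an adaptor between receptors and Ras, rose by 0.98 (limma adjusted p = 0.0105), but without Sham replicate 1 the difference was 0.84 and not called. Eif4ebp1, the translational repressor that mTOR phosphorylates downstream of AKT, rose by 1.21 (limma adjusted p = 0.00303). Ptpn7, a phosphatase that acts on ERK, rose by 2.20 (limma adjusted p = 0.0117), but 1 of 2 Sham arrays was above background for it and without Sham replicate 1 the difference was 1.03. Ptpn7 entered the test only through the injured groups, in which it was high. Its calls in each drug group rest on the same 2 Sham arrays and are not separate support. Without Sham replicate 1 the difference was 1.33 after Prozac and 0.85 after Zoloft, against 2.50 and 2.02 with it. The Zoloft call held in 14 of 25 alternatives.

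Among the genes that fell was Sst, the inhibitory neuropeptide whose promoter is shown above, which read 0.19 and -0.08 in Sham and -2.13, -1.11 and -1.02 in TBI. The difference was -1.48 (SE 0.32, 0.36-fold, limma adjusted p = 0.00847), and without Sham replicate 1 it was -1.34 and not called. Nr4a1, an activity-induced nuclear receptor, read -0.58 and -0.55 in Sham and -1.44, -1.44 and -1.30 in TBI, and fell by 0.83 (limma adjusted p = 0.00603). Pde4d, an enzyme that breaks down cAMP, fell by 1.79 (limma adjusted p = 0.0128), Camkk2, the kinase that activates CaMKIV, by 1.08 (adjusted p = 0.0182), and Camk1g, another CaM kinase, by 0.67 (adjusted p = 0.0411). The Pde4d fall was on its main probe, which was above background on 2 of 3 TBI arrays. Its other probe barely differed, with means of -5.25 in Sham and -5.26 in TBI. Pde4d lost its call with the mean of its 2 probes (-0.90, limma adjusted p = 0.138) and without either Sham array. The Camkk2 difference was -0.71 and not called without Sham replicate 2, and the Camk1g call was lost in 10 of the fits that left out 1 array. By the methods' t-test with adjustment none of these 10 genes passed.

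**Figure D4:**
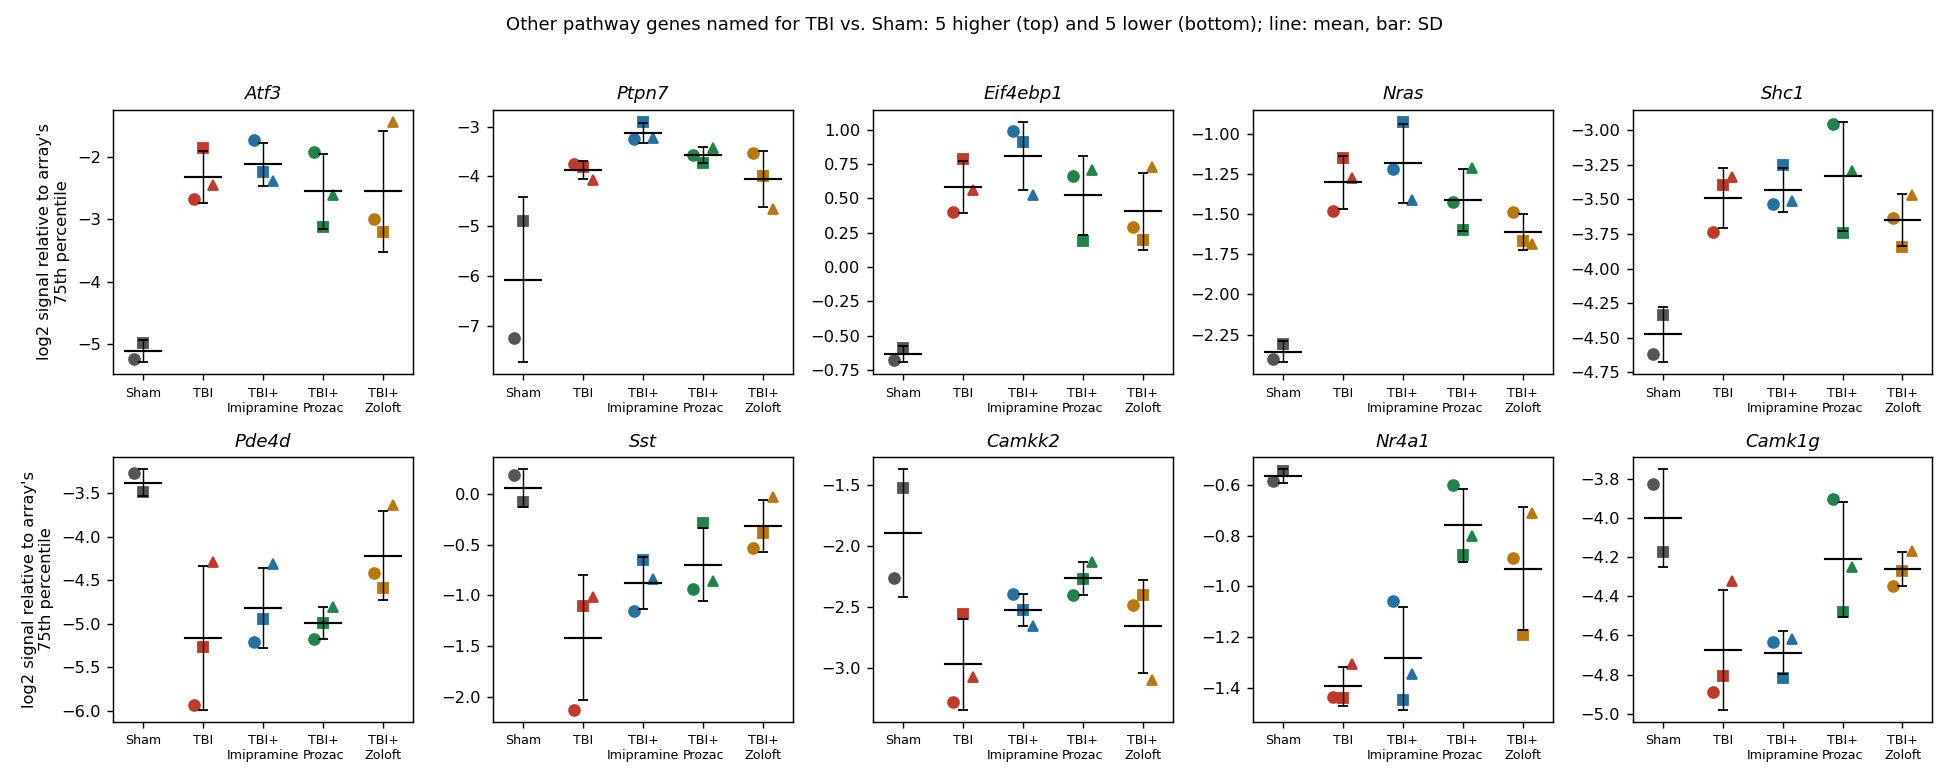
Log2 signal of the main probe by array for the 5 pathway genes with the largest rise (top) and the 5 with the largest fall (bottom) in TBI vs. Sham, with group mean (line) and SD (bar). For Atf3, Eif4ebp1, Nras and Shc1 every injured array lies above both Sham arrays.

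After imipramine 25 of 135 pathway genes passed against Sham (18.5%, where 23.4% of all probes did), 14 higher and 11 lower. The 7 MAP kinase genes called were all higher, as were 84.6% of all calls in this comparison, and the 3 cAMP and PKA genes and 4 calcium and CaM kinase genes called were all lower. The falls included Pdyn, the prodynorphin gene, which read 0.50 and 0.48 in Sham, 0.61, 0.67 and 0.38 in TBI and -0.51, -0.27 and -0.62 after imipramine. The imipramine arrays stood below all of these. The log2 difference from TBI was -1.02 (SE 0.22, limma adjusted p = 0.0326) and that from Sham was -0.96 (adjusted p = 0.016), and the first held in 17 of 27 alternatives. It was lost without imipramine replicate 1, 2 or 3 (limma adjusted p = 0.124, 0.0917 and 0.0784), with quantile normalization (0.0571) and with the replicate block (0.0532). With slide as a fixed block it was -0.845 (limma adjusted p = 0.822), and no imipramine array shared a slide with TBI. Camk1, a calcium-activated kinase, was the other of 2 pathway genes that passed against TBI (0.59, limma adjusted p = 0.039), a call lost under each other scaling. Pde4a, a further cAMP-degrading enzyme, passed below Sham after imipramine (-0.81, limma adjusted p = 0.0224). For Prozac 10 of 135 passed against Sham (7.41%, where 14.9% of all probes did), 9 of them higher. For Zoloft 8 passed (5.93%, where 5.95% of all probes did), 7 of them higher. The exception was Ppp3ca, the catalytic subunit of calcineurin, at -0.72 (limma adjusted p = 0.039). Without Sham replicate 2 this was -0.45 (adjusted p = 0.332), and the call held in 14 of 26 alternatives, the replicate block not among them (adjusted p = 0.0817). In limma, 0 of 135 passed against TBI for Prozac (15 at an unadjusted p under 0.05) and 0 for Zoloft (16 at an unadjusted p under 0.05).

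Some microglial and macrophage markers passed as higher in each comparison with Sham. Of 8 such markers 6 passed after imipramine, where 23.4% of all probes passed in either direction, and 3 in TBI (16.6% of all probes). After Prozac 5 passed (14.9%) and after Zoloft 2 (5.95%). Their summed signal was 3.29 to 4.15 in Sham, 5.20 to 5.83 in TBI, 5.85 to 6.98 after imipramine, 4.77 to 7.32 after Prozac and 4.08 to 5.67 after Zoloft, and all 8 were above background on every array. The part of these cells in the Creb1, Crem and Akt1 differences was not tested.

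CREB target genes set 1 array apart. On TBI+Zoloft replicate 3, the array with the highest Crem, 14 of 22 CREB target genes had their highest value of the 14 arrays, where 13.3% of all 10204 genes did. Arc, a synaptic immediate early gene, read 2.07 there against -0.67 and -1.15 on the other Zoloft arrays and at most 0.29 on any other array. Bdnf, the neurotrophin, read -1.30 against -3.44 and -3.64 on the other Zoloft arrays, and Inhba, an activin subunit, 1.29 against -3.41 and -3.00. Fos was at 0.04 against -2.07 and -2.54. The other Zoloft arrays lay within the range of the remaining groups for these 4 genes. Bdnf did not pass in any comparison (limma adjusted p = 0.223 to 0.763).

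The same array bears on the Crem results. Without it the Crem difference between Zoloft and Sham was 0.53, against 0.84 with it. Because it widened the spread shared by all groups, leaving it out lowered the limma adjusted p for Crem in TBI vs. Sham from 0.125 to 0.0334 and in Prozac vs. Sham from 0.132 to 0.0383, at unchanged differences of 0.64.

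**Figure D5:**
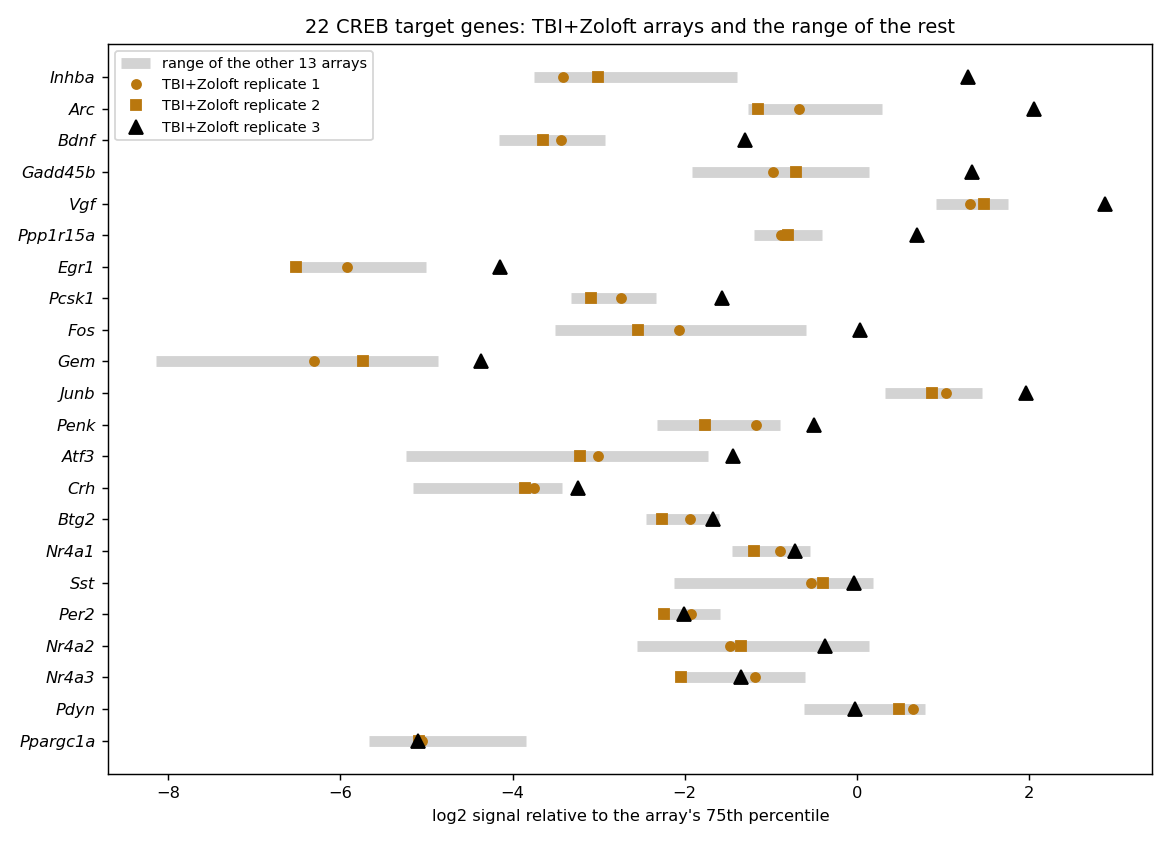
Log2 signal of 22 CREB target genes on the 3 TBI+Zoloft arrays (symbols) and the range over the 13 arrays other than TBI+Zoloft replicate 3 (grey bars), ordered by the distance of that replicate from the next highest array. Replicate 3 lies beyond the grey bar for 14 genes, farthest for Inhba, Arc and Bdnf.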

How the data were processed

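The deposited scanner files hold spot intensity on a linear scale, per the file headers from Agilent Feature Extraction, in which the authors had removed background and spatial trend (processed signal). Flags for above background, outlier and saturated spots are of another kind (0 or 1), per the file headers. As an alternative, the authors' own scaled intensity values for these arrays were read from a deposited table. miRNA arrays were not used here. Outlier spots and control spots were left out, spots of a probe were averaged, and signals were divided by the 75th percentile of probes above background (over 0.5 of a probe's spots) on the same array and log2 transformed. Of 30367 probes, 17322 were kept, above background on all arrays of at least 1 group. Accessions were matched to RefSeq symbols: 18643 probes had 1 symbol, 0 several and 11724 none. Groups and replicate numbers came from the sample titles. The test was limma (version 3.58.1, R 4.3.3), tested on simulated data, where it recovered 47 of 100 probes changed by 1 and 86 of 100 changed by 2 on the log2 scale for TBI vs. Sham among 17251 probes.

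Array number, 2 or 3 per group, limits the precision. The main probe of a gene was, among its kept probes, the one above background on most arrays and then the brightest. Other pathway genes named were up to 5 higher and 5 lower with the largest differences past the threshold. In the closing section the alternatives are other background corrections (normexp with an offset of 50, run on the median spot signal because the files lack a mean signal), scalings, filters, blocks, tests and left-out arrays. The genes, lists and rules were chosen with earlier results of these data known.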

Additional observations from a re-analysis of the deposited data

Results flagged for a closer look

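Among the genes named, 4 pathway genes that are none of the 8 differed among the 3 drugs by the F test of limma. Ppp3ca, a calcineurin catalytic subunit, had an adjusted p of 0.0247, Ppp3r1, its regulatory subunit, 0.0384, Camk1 0.0397 and Ctnnb1 (beta-catenin, which GSK3B phosphorylates) 0.0273. Ppp3r1 entered the test only through the imipramine and Prozac groups, which have its highest means, so its call is not support for a drug difference. It was above background on 2 of 3 TBI+Zoloft arrays, and with normexp its span was 0.15 (limma adjusted p = 0.71). Ppp3ca read 2.00, 1.83 and 1.42 after imipramine, 2.08, 2.19 and 2.12 after Prozac and 1.11, 1.22 and 1.16 after Zoloft, so that every Zoloft array was below every other drug array. Ctnnb1 read -0.65, -0.54 and -0.86, then -0.58, -0.73 and -0.64, then -1.19, -1.22 and -1.36 in the same order of drugs. Within the slide that carried 8 of the 9 drug arrays the spans between drug means were close to those over all arrays, but none of the 4 passed by limma. There the span was 0.99 for Ppp3ca (0.97 over all arrays, adjusted p = 0.0941 within the slide), 0.997 for Ppp3r1 (adjusted p = 0.105), 0.69 for Camk1 (0.0986) and 0.57 for Ctnnb1 (0.60 over all arrays, adjusted p = 0.103 within the slide). The calls were also lost with quantile normalization, the percentile over all probes, the median and the series table, where the spans were 0.80 to 0.92 for Ppp3ca, 0.78 to 0.83 for Ppp3r1, 0.46 to 0.48 for Camk1 and 0.43 to 0.47 for Ctnnb1.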

How the results depend on the processing

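The number of the 8 genes past the threshold stayed at 0 for each drug against TBI and among the drugs under all alternatives run. For imipramine and Zoloft against TBI the fixed slide block rests on TBI+Prozac replicate 1 alone and is not a check. For TBI vs. Sham it was 0, but 2 with quantile normalization and 1 with the percentile over all probes, the median or the series table. For imipramine vs. Sham it was 3, but 1 with normexp or no filter and 0 by the methods' t-test. It was 4 with quantile normalization, the percentile over all probes or the series table, where Akt1 was lost and Mapk3 and Camk4 passed as lower. With the median it was 3, but of other genes, Akt1 and Crem being lost and Mapk3 and Camk4 gained. Over probes above background on all arrays it was 2. For Prozac vs. Sham it was 0, but 1 with quantile normalization, the percentile over all probes, the median or the series table. For Zoloft vs. Sham it was 0, but 3 with quantile normalization or the series table, 2 with the percentile over all probes or the median, and 1 with normexp or slide as a random block. Leaving out 1 array gave 0 to 1 for TBI, 0 to 4 for imipramine, 0 to 1 for Prozac and 0 to 1 for Zoloft, each against Sham, the 1 for TBI and for Prozac coming without TBI+Zoloft replicate 3, and for Zoloft without TBI replicate 1 or TBI+Zoloft replicate 2.

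With normexp the Creb1 difference from Sham turned to -0.31 in TBI, -0.15 after imipramine and -0.28 after Prozac. Crem probe A_44_P988767, TBI vs. Sham, turned to -0.16 with normexp, -0.005 with the median and -0.11 with the replicate block, and ran from -0.13 to 0.33 when 1 array was left out. The causes were not tested. Of 2536 values of 96 differences under 29 alternatives, 106 had another sign, 1 of them for a difference that had passed.

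Same-numbered arrays did not deviate together (correlations -0.23 to 0.23, median 0.005, 26 pairs). With the replicate block 2 of the 8 genes passed for imipramine vs. Sham, Akt1 being lost (limma adjusted p = 0.0853), and 0 in the other comparisons.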
